A study of Homo sapiens with 4 samples.

Results

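The interferon regulatory factors (IRFs) are a family of transcription factors, and their genes were followed here through H3K4me3, a histone mark of active promoters. The rows of the annotated peak table were taken whose gene name was IRF1, IRF2, IRF4, IRF5, IRF7, IRF8 or IRF9 and whose centre lay within 5000 bp of the transcription start site (TSS). This gave 13 of 110018 peaks, at 6 of the 7 genes, while 18346 gene names had such a peak in all; IRF9 was not analysed here. IRF1 had 4 peaks, IRF2 had 3, IRF5 and IRF7 had 2 each, and IRF4 and IRF8 had 1 each. The farthest from a TSS was the IRF4 peak at +1916 bp, and the nearest one left out was an IRF1 peak at -5784 bp, with 426 and 419 tags per 10 M in DMSO and 349 and 366 in C48.

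The mark was profiled by CUT&Tag, in which an antibody directs the transposase Tn5 to cut DNA beside it. The cells were HCC1428, an established line of luminal breast cancer. They received the vehicle DMSO or 2.5 µM C48, an inhibitor of the KDM5 enzymes that remove methyl groups from lysine 4 of histone H3, for 5 days. There were 2 libraries per group from this 1 line, titled as biological replicates, and the labels name no engineered allele. Separate cultures are not mentioned, so the p-values cover only the spread between these samples, part of which may be technical. The libraries held 58.4 to 88.4 M aligned tags, with 64.0% to 66.3% in peaks, and across peaks the log2 values correlated at 0.993 and 0.994 within the DMSO and C48 pairs, peaks not being independent replicates. All 10 luminal marker genes, including ESR1, GATA3 and KRT8, had a tested value, with a summed level of 7382 to 7497 tags per 10 M in DMSO and 5822 to 5992 in C48. The luminal marker TFF1 went against that lower sum, with 69.25 and 65.9 in DMSO and 144.75 and 158 in C48. Of 10 blood lineage markers only PAX5 and CD14 had a tested value. The summed level of the blood markers with a peak was 197 and 201 in DMSO and 278 and 300 in C48, while PTPRC, MS4A1, CD79A and CD3E had no tested value.

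IRFs share a DNA-binding domain that reads GAAA repeats in the interferon-stimulated response element (ISRE). IRF1 is induced by interferon gamma through gamma-activated sites (GAS) and activates interferon-stimulated genes, and IRF2 is known chiefly as its antagonist. IRF5 and IRF7 are phosphorylated downstream of pattern recognition receptors and switch on interferon genes. IRF9 is the DNA-binding subunit of the complex ISGF3. IRF4 and IRF8 are best known in lymphocytes and myeloid cells, where they bind composite ETS-IRF elements (EICE) with the factor PU.1.

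The sequences are shown because letters matching motifs of the interferon pathway lie inside peaks of IRF1, IRF7 and IRF8. Searched on both strands were the ISRE (GAAA, any 2 bases, GAAA), the GAS (TTC, any 3 bases, GAA) and the EICE (GGAA, any 2 bases, GAAA); they were counted separately where they overlap. Of 35116 RefSeq promoters on hg38, 3.57% held the first, 7.66% the second and 2.82% the third. Among the central 300 bp of 43605 peaks the shares were 3.44%, 5.68% and 2.21%. The sites below are in capitals, with 10 bases on either side, and are printed on the plus strand of hg38 except that of IRF1, which is on the minus strand in the direction of the gene.
IRF1 GAS, chr5:132490889-132490897: acagcctgatTTCCCCGAAatgacggcac
IRF7 ISRE, chr11:615694-615703: aggctcccggGAAAGCGAAAcctaaacagt
IRF8 GAS, chr16:85899025-85899033: ggaaagtgatTTCTCGGAAagcagagcac
IRF8 GAS, chr16:85899044-85899052: agcagagcacTTCGAAGAAggcgggccgc
The IRF1 site began 124 bases before the RefSeq start and lay in the peak at -106 bp. Both IRF8 sites lay in the only IRF8 peak, and the IRF7 site in its peak on chromosome 11. An EICE was found at IRF5 in 1 of its 4 RefSeq promoters, at chr7:128940637-128940646, outside both IRF5 peaks. A match is a match of letters and not a measured binding site.

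The comparison asked how H3K4me3 at these genes differed between C48 and DMSO. IRF1 was lower at its start site and higher 1225 and 1529 bp into the gene. All 3 IRF2 peaks were lower, IRF5 was higher 713 bp downstream of its start, and the single weak IRF4 peak had more tags in C48. IRF8 showed no called difference, and IRF7 had almost no signal. Values are tags per peak per 10 M (10000000) aligned tags as deposited, and fold changes are from limma on log2 of the value scaled by TMM plus 1, a method that sets the bulk of peaks as the reference. Higher and lower with TMM are therefore relative to that bulk and are not absolute gains or losses. A call is a Benjamini-Hochberg adjusted p under 0.05 over all peaks tested.

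Of the 13 peaks, 11 had a mean of at least 5 tags per 10 M and 8 had been called by HOMER in at least 1 of the 4 libraries. Both conditions were met by 7, of which 2 were called higher and 3 lower, against a background of 35.7% and 36.5% of 34154 peaks. One of those 2, the IRF4 peak, reached the minimum mean only through C48 and so had to differ, which holds for every count of higher calls that includes it. The other, the IRF5 intron peak, passed the minimum mean in each group but met the HOMER condition only through C48. Its higher call among the 7 is therefore not free of the selection. The 4 strong enough but not called by HOMER in these libraries include both inner IRF1 peaks. They were tested by fitting all 43712 peaks with a mean of at least 5, an alternative added after seeing the data. There 4 of 11 were called higher and 5 lower, against 36.5% and 34.1% of all peaks. The IRF5 intron peak was among the 4 called higher in that fit, which has no HOMER condition. The split moved with the scaling: without further scaling of the deposited values it was 7 higher and 4 lower of 11, against 54.7% and 20.9%, and scaled on ribosomal protein promoters 8 and 1, against 81.1% and 3.02%. On the column total it was 7 and 4 (57.7% and 19.0%), and with DESeq2 factors 4 and 5 (34.1% and 36.6%).

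**Figure D1:**
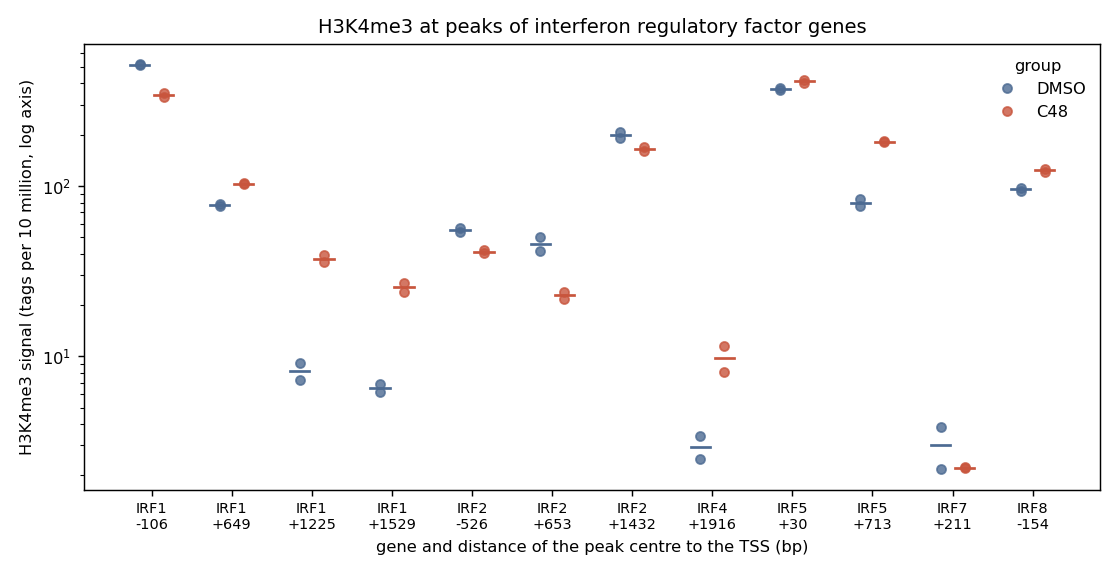
H3K4me3 signal (y axis, tags per 10 M as deposited, log axis) of 12 IRF peaks (x axis, gene and distance of the peak centre to the TSS in bp) in DMSO and C48, with a point for each library and a bar at each group's mean of 2. C48 lies above DMSO at IRF1 +1225 and +1529, IRF4, IRF5 +713 and, by less, IRF1 +649, IRF5 +30 and IRF8, whose direction or call depends on the scaling, and below it at IRF1 -106 and the 3 IRF2 peaks; the IRF7 peak on an alternate contig, with at most 0.17 tags per 10 M, is not drawn.

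IRF1 changed in opposite directions along its first kilobases. Its start site peak (chr5:132490472-132491286, hg38, centre -106 bp) spans the IRF1 start and is annotated as the promoter of a noncoding transcript. Signal of the gene and of that transcript cannot be told apart within the peak. This start site peak held 519 and 513 tags per 10 M in DMSO and 350 and 332 in C48. Both C48 libraries were below both DMSO libraries, with a log2 fold change of -0.94 (SE 0.060, limma adjusted p = 1.59e-20). Of peaks within 1000 bp of a TSS, 63.3% were called lower and 19.4% higher. As in any bulk sample, fewer cells carrying the mark and less of it per cell cannot be told apart. The direction was the same under all 5 scalings, although on ribosomal protein promoters the value was -0.12 and not called (limma adjusted p = 0.134).

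The second IRF1 peak, in the first intron (chr5:132489923-132490326, +649 bp), had 76.6 and 78.5 tags per 10 M in DMSO and 103 and 104 in C48. The deposited values did not overlap, but with TMM the log2 fold change was 0.07 (95% interval -0.13 to 0.27, limma adjusted p = 0.547); without further scaling it was 0.41 and called. HOMER had called this peak in both C48 libraries and in neither DMSO library.

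Further in, the intron peak at +1225 bp (chr5:132489423-132489674) went from 9.17 and 7.27 tags per 10 M in DMSO to 35.6 and 39.4 in C48. These values rest on 81 and 47 tags in DMSO and 208 and 286 in C48. The log2 fold change was 1.75 (SE 0.20, limma adjusted p = 3.75e-11, wider set of peaks), and it ran from 1.69 to 2.52 over the 5 scalings. Next to it, the peak at +1529 bp (chr5:132489079-132489410), annotated to exon 2 of 2 of the noncoding transcript, had 6.90 and 6.19 tags per 10 M in DMSO and 27.1 and 23.9 in C48. It rose by 1.496 (SE 0.22, limma adjusted p = 5.69e-08), with a range of 1.44 to 2.25 over the scalings. At both peaks the C48 libraries were well clear of the DMSO libraries. Among all peaks over 1000 and up to 2000 bp downstream of a TSS in this fit, 67.9% were called higher and 13.8% lower, so the direction of these peaks was that of most at their distance.

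IRF2, the antagonist of IRF1, was lower at each of its peaks. The strongest lay in the first intron (chr4:184472769-184473468, +1432 bp) with 191 and 209 tags per 10 M in DMSO and 169 and 161 in C48, a log2 fold change of -0.62 (SE 0.077, limma adjusted p = 3.74e-10). It was called lower under 4 scalings and reversed on ribosomal protein promoters (0.20). The groups did not overlap, and this was a fall at a distance, over 1000 and up to 2000 bp downstream, where 19.5% of peaks were called lower and 62.6% higher.

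The intron peak of IRF2 at +653 bp (chr4:184473744-184474051) had 50.1 and 41.8 tags per 10 M in DMSO and 21.6 and 23.9 in C48. It fell by 1.31 on the log2 scale (SE 0.16, limma adjusted p = 9.81e-11, wider set). It was called lower under each of the 5 scalings, with -0.51 on ribosomal protein promoters. In the wider set 35.8% of peaks over 500 and up to 1000 bp downstream were called lower and 37.9% higher. Upstream, the promoter-TSS peak (chr4:184474818-184475334, -526 bp) had 57.0 and 53.4 tags per 10 M in DMSO and 42.0 and 40.3 in C48, a log2 fold change of -0.75 (SE 0.13, limma adjusted p = 1.07e-06, wider set). That fall was called under 4 scalings, and on ribosomal protein promoters the value was 0.06 and not called. No peak of the table covered the RefSeq start of IRF2 itself, the nearest edge being 268 bp away.

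IRF5 differed between its start site and the region just inside the gene. No peak covered the RefSeq start of the gene itself, the nearest edge being 812 bp away. The start site peak (chr7:128937844-128938651, +30 bp from a start further in) had 374 and 368 tags per 10 M in DMSO and 421 and 405 in C48. These deposited values were higher in both C48 libraries, whereas with TMM the log2 fold change was -0.19 (SE 0.061, limma adjusted p = 0.0053). It was 0.64 on ribosomal protein promoters, 0.20 on the column total and 0.15 without further scaling, so the direction of this peak depends on the reference.

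The IRF5 intron peak at +713 bp (chr7:128938699-128939161) had 83.9 and 76.0 tags per 10 M in DMSO and 180 and 183 in C48. It rose by 0.83 (SE 0.092, limma adjusted p = 1.03e-11, wider set) with TMM, and the rise was called under every scaling, from 0.78 to 1.65. HOMER had called it in both C48 libraries and in neither DMSO library. It thus entered the set of called peaks only through C48, and the p is given from the wider set, which has no such condition. Over 500 and up to 1000 bp downstream, 37.9% of peaks were called higher and 35.8% lower in the wider set. Among called peaks the shares were 33.1% and 47.1%.

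IRF4, the lymphocyte factor, had 1 peak within 5000 bp, in an intron (chr6:393415-393921, +1916 bp) and 1663 bp from the RefSeq start at its nearest edge. It held 3.39 and 2.48 tags per 10 M in DMSO and 11.5 and 8.12 in C48, which is 30 and 16 tags against 67 and 59. Both C48 libraries were above both DMSO libraries, with a log2 fold change of 1.16 (SE 0.33). The peak passed the minimum mean of 5 only through the C48 libraries, which were also the only ones of the 4 in which HOMER called it. It had to differ once it was kept, so its call is given as a description and no p is given. Without C48 replicate 1 the value was 0.96 and no longer called. The blood markers PAX5 and CD14 had log2 fold changes of 0.08 (not called) and 1.15 over their summed peaks; the part of such markers in the IRF4 value was not tested.

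IRF8, the myeloid factor, had its peak over the start site (chr16:85898654-85899362, -154 bp) with 97.4 and 93.8 tags per 10 M in DMSO and 126 and 121 in C48. The deposited values were higher in both C48 libraries. With TMM the log2 fold change was 0.02 (95% interval -0.16 to 0.21, limma adjusted p = 0.825), but it was called higher without further scaling (0.37), by column total (0.41) and on ribosomal protein promoters (0.84). With DESeq2 factors it was -0.03 and not called in the same set of peaks.

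IRF7, the factor that amplifies the interferon response, carried little of the mark. Its peak on chromosome 11 (chr11:615578-615901, +211 bp), annotated to the transcription termination site of a neighbouring transcript, had 3.85 and 2.17 tags per 10 M in DMSO and 2.23 and 2.20 in C48. These are 34 and 14 tags against 13 and 16, and the groups overlap. A copy of the locus on an alternate contig, at +137 bp, had at most 1 tag in a library, and how reads were shared between the copies was not tested. Neither peak reached the minimum mean of 5. With no filter on low values the log2 fold change of the peak on chromosome 11 was -0.53 (95% interval -1.41 to 0.35, limma adjusted p = 0.285), an interval too wide to show a difference at this depth.

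**Figure D2:**
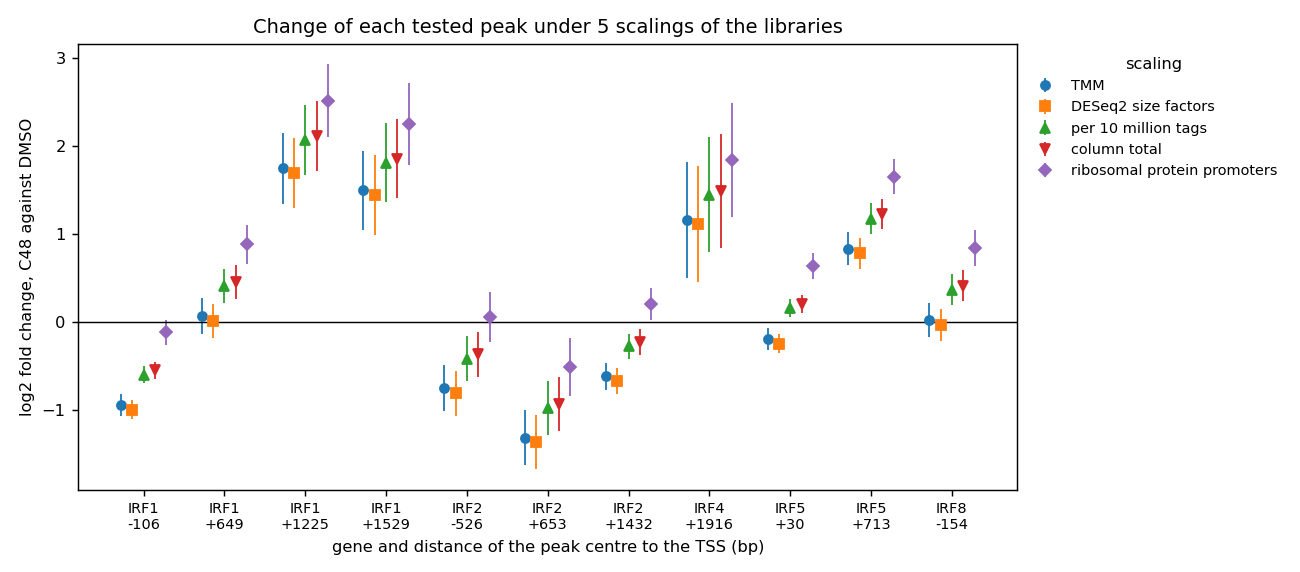
Log2 fold change (y axis, C48 against DMSO) of the 11 tested IRF peaks (x axis, gene and distance of the peak centre to the TSS in bp) under 5 scalings; points are limma estimates from the wider set of peaks and bars their 95% intervals. IRF1 +1225 and +1529, IRF4 and IRF5 +713 are above 0 under each scaling and IRF2 +653 below 0, while IRF5 +30 goes from -0.19 with TMM to 0.64 on ribosomal protein promoters.

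Summing all peaks of a gene within 5000 bp gave 1 value per gene. IRF4 was called higher (1.16) and IRF1 (-0.61, SE 0.057) and IRF2 (-0.74, SE 0.070) lower with limma and TMM, and IRF5 (0.06, adjusted p = 0.373) and IRF8 (0.02) were not called. The IRF4 value is its single peak again, kept only through C48, so no gene was called higher apart from that one. The background was 20.8% higher and 60.3% lower of 15615 genes, whose median was -0.32. Without further scaling, when the median of all genes was 0.02 with 39.5% higher and 37.2% lower, IRF5 (0.40) and IRF8 (0.37) joined IRF4 as higher, and IRF1 (-0.26) and IRF2 (-0.39) were still called lower. On ribosomal protein promoters IRF1 (0.22) and IRF2 (0.09) turned, the median of all genes being 0.50. With the window narrowed to 1000 bp, IRF4 had no peak and no IRF gene was called higher.

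Per kilobase of peak, the order of the genes in DMSO was IRF5 with 360 and 349 tags per 10 M, IRF1 with 339 and 336, IRF2 with 196 and 199, IRF8 with 137 and 132, IRF4 with 6.69 and 4.89 and IRF7 with 5.40 and 2.96. The libraries of IRF4 and IRF7 overlapped, while the other neighbours in this order did not. In C48 the order was IRF5 with 473 and 463, IRF1 with 286 and 277, IRF8 with 177 and 171, IRF2 with 152 and 148, IRF4 with 22.6 and 16.0 and IRF7 with 3.27 and 3.001, with no overlap between neighbours. IRF8 and IRF2 had thus changed places. The IRF7 values include the length of its copy on an alternate contig, which held at most 1 tag in a library. On its chromosome 11 peak alone IRF7 had a mean of 9.29 in DMSO, above the IRF4 mean of 5.79. In C48 that peak had a mean of 6.84, below the IRF4 mean of 19.3. The order of IRF4 and IRF7 in DMSO thus depends on whether the copy is counted.

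Ratios of tags between genes of 1 library need no scaling between libraries. The tags of IRF5 over those of IRF1 were 0.749 and 0.733 in DMSO and 1.17 and 1.18 in C48, so IRF5 went from the smaller to the larger summed signal. For IRF8 over IRF2 they were 0.327 and 0.309 in DMSO and 0.541 and 0.538 in C48. IRF2 over IRF1 moved less, from 0.488 and 0.502 to 0.451 and 0.452. A ratio shows unequal change and not which gene moved, and with 2 against 2 libraries an exact permutation test cannot give a p below 0.333, so none is given.

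**Figure D3:**
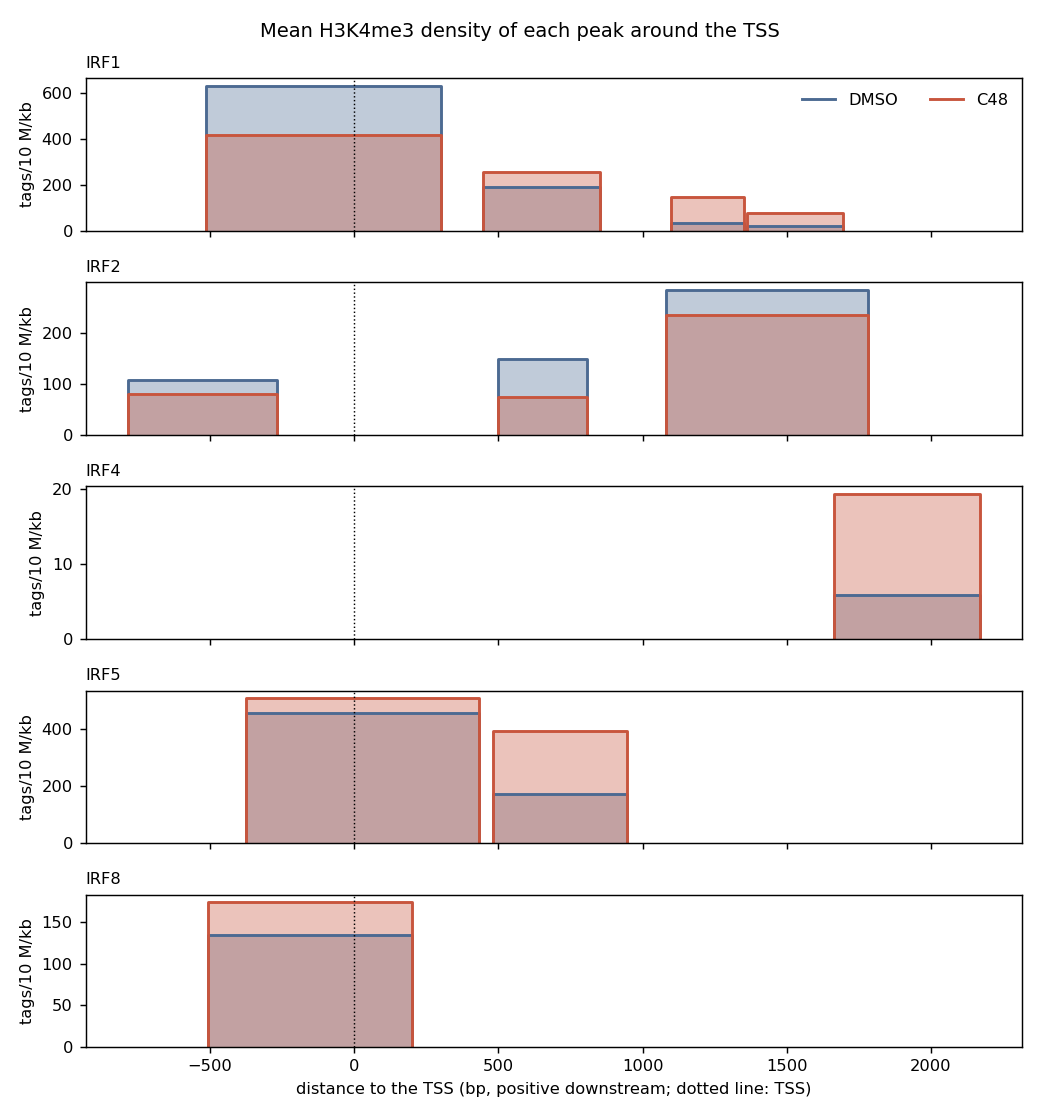
Mean H3K4me3 density (y axis, tags per 10 M per kb of peak, as deposited, mean of 2 libraries) of each peak of IRF1, IRF2, IRF4, IRF5 and IRF8 along its distance to the TSS (x axis, bp, positive downstream); boxes span the peak and colours are DMSO and C48. At IRF1 the C48 box is lower over the TSS (418 against 633) and higher at +1225 bp (149 against 32.6), whereas at IRF2 it is lower at every peak; y axes differ between genes.

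The distribution of the mark along a gene was compared within libraries as the ratio of signal beyond 1000 and up to 5000 bp from the TSS (outer) to that within 1000 bp (core). For IRF1 the outer share of all its tags was 2.63% and 2.22% in DMSO and 12.2% and 12.7% in C48, so every C48 library was above every DMSO library. The log2 ratio rose by 2.46 (SE 0.13, 95% interval 2.11 to 2.81, limma adjusted p = 0.000225). Among the 2953 genes with both zones the median was 0.90, with 73.9% called higher and 7.01% lower, and 94.6% had a smaller change than IRF1. The IRF1 value ran from 2.42 to 2.46 over the scalings.

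For IRF2 the outer share was 64.1% and 68.7% in DMSO and 72.6% and 71.5% in C48. The IRF2 core held only the peaks at -526 and +653 bp, which HOMER called in no library and which do not cover the start. Its zones are thus unlike those of genes with a peak over the start. The log2 ratio of IRF2 rose by 0.37 (SE 0.12, 95% interval 0.053 to 0.70, limma adjusted p = 0.0386), less than the median gene, with 27.5% of genes below it. That call was lost without DMSO replicate 1 (0.23, limma adjusted p = 0.105), without C48 replicate 1 (0.34, 0.156) and without C48 replicate 2 (0.41, 0.0998). IRF5 has no peak beyond 1000 bp. With a core of 500 bp its outer share was 18.3% and 17.1% in DMSO and 30.0% and 31.1% in C48, and its log2 ratio rose by 1.02 (SE 0.090, limma adjusted p = 0.000323). With that core the median of 5609 genes was 0.69, with 73.7% called higher and 6.49% lower, and IRF1 rose by 1.44 (limma adjusted p = 0.000199).

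**Figure D4:**
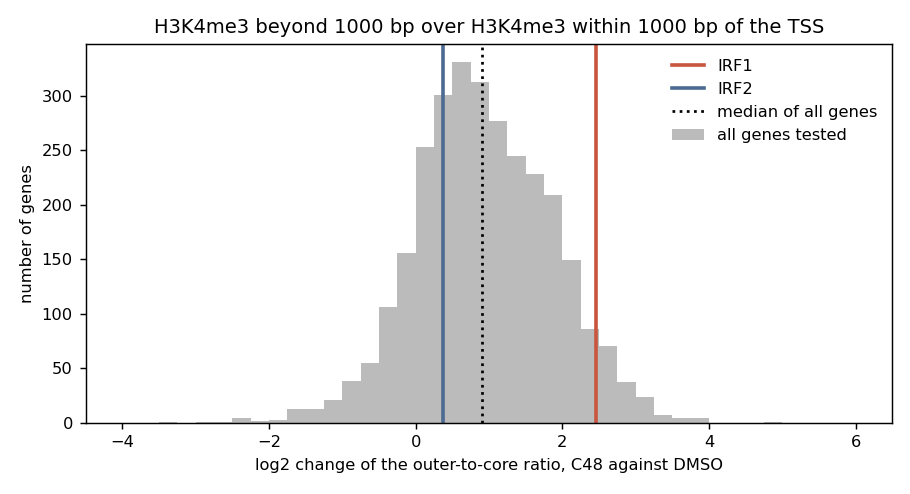
Number of genes (y axis) by the log2 change of the outer-to-core H3K4me3 ratio (x axis, C48 against DMSO) in 2953 genes with signal in both zones; lines mark IRF1, IRF2 and, dotted, the median of all genes. IRF1 at 2.46 lies in the upper tail and IRF2 at 0.37 below the median of 0.90.

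The peaks also differ in base composition, which the choice of peaks did not use. The start site peaks of IRF1, IRF5 and IRF8 and the IRF4 peak were 69.6% to 72.4% GC, with an observed over expected CpG ratio of 0.75 to 0.96. The IRF1 peaks at +1225 and +1529 bp were 51.6% and 51.8% GC, with CpG ratios of 0.30 and 0.14, under the lower quartile of 0.40 for all tested peaks. IRF5 +713 stood between them, with 66.7% GC and a ratio of 0.52. The 3 IRF2 peaks had ratios of 0.75 to 0.88. Among the peaks called higher, then, the IRF1 pair was CpG-poor while the IRF4 peak, with a ratio of 0.93, was not.

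The rest of the pathway was read from lists of genes, by their summed peaks, beside the median of all genes of -0.32 with TMM. Of 17 sensors, adaptors and kinases that activate IRFs, 13 were tested, of which 5 were called higher, 5 lower and 3 neither (median -0.09), beside 20.8% higher and 60.3% lower of all genes. Without further scaling 9 were called higher and 3 lower, beside 39.5% and 37.2%. TRAF6, a ubiquitin ligase of Toll-like receptor signalling, went from 863 and 870 tags per 10 M in DMSO to 536 and 619 in C48 (-0.93, limma adjusted p = 5.88e-64), but was at -0.11 and not called on ribosomal protein promoters. The kinase TBK1, which phosphorylates IRFs, was at -0.54 and the adaptor TRAF3 at -0.48, both called lower, although both turned on ribosomal protein promoters (0.29 and 0.34). The related kinase IKBKE had 86.6 and 100.3 tags per 10 M in DMSO and 217 and 204 in C48, and rose by 0.82 (limma adjusted p = 4.58e-20), so the kinases TBK1 and IKBKE were called in opposite directions with TMM.

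All 7 interferon receptors and their kinases were tested, and 6 were called lower and none higher with TMM (median -0.48), where 60.3% of all genes were called lower. JAK1, the kinase shared by both interferon receptors, had 1786 and 1847 tags per 10 M in DMSO and 1349 and 1335 in C48 (-0.78, limma adjusted p = 1.78e-54). IFNGR1 (-0.52), IFNAR1 (-0.48) and JAK2 (-0.46) were also called lower. The direction of this list depends on the scaling: without further scaling 1 was called higher and 3 lower, and on ribosomal protein promoters, where 79.1% of all genes were called higher, 6 were called higher and none lower.

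Of 15 partners and co-regulators 13 were tested, with 4 called higher, 8 lower and 1 neither (median -0.40), beside 20.8% higher and 60.3% lower of all genes. The 4 higher include IKZF3, which had 4.07 and 4.33 tags per 10 M in DMSO and 13.9 and 15.4 in C48. IKZF3 reached the minimum mean of 5 only through C48 and so had to differ, which holds for every count of higher calls in this list. The counts were 6 and 6 without further scaling and 10 and 0 on ribosomal protein promoters, where 79.1% of all genes were called higher. BATF, which pairs with IRF4 at composite elements, had 95.5 and 83.0 tags per 10 M in DMSO and 288 and 277 in C48, and rose by 1.31 (limma adjusted p = 2.05e-53). The coactivators EP300 (-0.79) and CREBBP (-0.62) and the NF-kappaB gene NFKB1 (-0.75) were called lower with TMM, and on ribosomal protein promoters EP300 was at 0.03, CREBBP at 0.21 and NFKB1 at 0.07.

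The known target genes of IRFs had the highest median of these lists. Of 20, 14 were tested, and 11 were called higher, 2 lower and 1 neither, with a median of 1.05, beside 20.8% higher and 60.3% lower of all genes. Without further scaling 12 were called higher and 2 lower, and on ribosomal protein promoters 12 and 0, against a background of 79.1% and 2.52% of genes on that scaling. OAS1, a sensor of double-stranded RNA that makes oligoadenylates, had 12.8 and 12.4 tags per 10 M in DMSO and 95.1 and 98.8 in C48, and rose by 2.52 (limma adjusted p = 4.26e-58). OAS2, of the same family, had 11.99 and 7.89 in DMSO and 70.6 and 72.9 in C48 (2.43). IFIT1, which binds foreign RNA, rose by 1.26. SOCS1, which restrains JAK signalling, was one of the 2 called lower, with 867 and 836 tags per 10 M in DMSO and 622 and 648 in C48 (-0.77, and 0.06 and not called on ribosomal protein promoters).

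IRF3, the family member that TBK1 activates, had 737 and 717 tags per 10 M in DMSO and 685 and 720 in C48, and these deposited values overlapped between the groups. It was called lower with TMM (-0.39), was not called without further scaling (-0.05) and was called higher on ribosomal protein promoters (0.43).

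**Figure D5:**
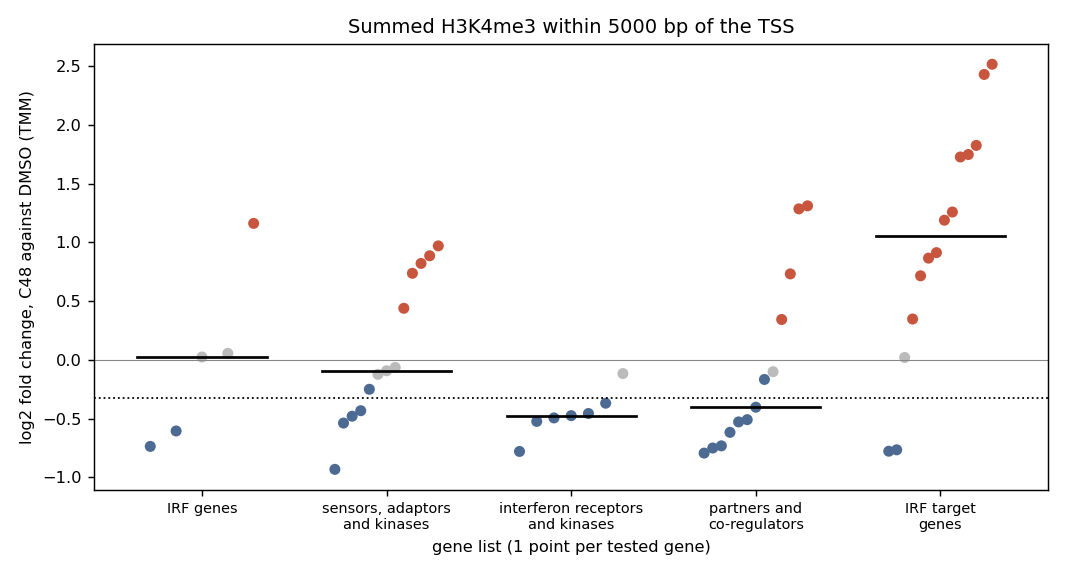
Log2 fold change (y axis, C48 against DMSO, TMM) of H3K4me3 summed within 5000 bp of the TSS for the tested genes of 5 lists (x axis, 1 point per gene); red points were called higher, blue lower and grey neither, bars are list medians and the dotted line is the median of all genes (-0.32). With TMM 11 of 14 target genes are called higher, and 6 of 7 receptors and kinases lower. On ribosomal protein promoters 6 of those 7 are called higher instead. The red points of IRF4 and, among the partners, IKZF3 reached the minimum mean only through C48 and so had to differ.

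The genes whose summed values were closest to an IRF gene, by Euclidean distance of the log2 scaled values over the 4 libraries, were MZT1 (0.041) and CAMKMT (0.043) for IRF1, MRPL17 (0.031) and ASCC3 (0.057) for IRF2, and BMS1P14 (0.069) and HK2 (0.074) for IRF5. They were DLGAP3 (0.057) and KCNAB2 (0.069) for IRF8, and NAALADL2-AS2 (0.17) and CRYM (0.36) for IRF4. IRF4 had the most distant neighbours of these 5 genes. The distance covers both level and change and rests on 4 points.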

How the data were processed

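H3K4me3 CUT&Tag was measured in 4 HCC1428 libraries, grouped by their titles. Per the submitters' processing notes, the authors used Bowtie2 2.3.4.1 and hg38, with dm6 for fly spike-in nuclei. The deposited signal is, per the file headers, the number of HOMER tags per peak per 10 M aligned tags, without spike-in scaling. The authors merged peaks called per library. The authors' peak score was used in no test, and spike-in counts and the repeat table were not used here. TMM factors (edgeR 4.0.16) stood in for the spike-in, so a genome-wide change cannot be seen. The paper reports a global increase of the mark under C48, with fewer fly reads in those samples. It states that without the spike-in the C48 peaks are counted too low. A lower call with TMM is thus no evidence of an absolute loss.

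Peaks called in at least 1 of the 4 libraries with a mean of at least 5 entered limma-trend (R 4.3.3 with limma 3.58.1) as log2(scaled value + 1), which understates changes of weak peaks. The wider set without the call condition was chosen after seeing the data. Summed genes and outer-to-core ratios were fitted likewise. All (100%) values were whole multiples of 1 tag within 0.1 tags, and edgeR and DESeq2 1.42.0 were run on the recovered tags. Scripts were tested on simulated data. Members, gene lists and tests were chosen with earlier results of these data known. Named list genes are the 4 with the smallest p per list; some listed genes are not reported here by name. Replicates differed beyond sampling noise (chi-square per degree of freedom 3.11 and 3.14), more than 1 library sequenced again would. Whether the libraries of a pair came from separate cultures cannot be told from this. RefSeq promoters were given for IRF1, IRF4, IRF5 and IRF8, and the sequences are from RefSeq tables and the hg38 genome. The labels give no batch. Plots used Python 3.11.15 and matplotlib 3.10.9.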

Additional observations from a re-analysis of the deposited data

Results flagged for a closer look

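Peaks assigned to IRF1 and IRF4 but more than 5000 bp from their start lie outside every comparison above. Of the 10 tested (limma with TMM, wider set of peaks chosen after seeing the data), 7 were called higher in C48 and 1 lower, beside 36.5% and 34.1% of all peaks. That share covers peaks at every distance, including those at start sites. Over 1000 and up to 2000 bp downstream, 67.9% were called higher and 13.8% lower in the same fit. The share of peaks beyond 5000 bp was not counted, so an excess at these genes was not tested. Whether the mark there belongs to these genes is not known, since assignment was to the nearest TSS only.

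The IRF1 peak at +26400 bp, in an intron, had 5.77 and 5.26 tags per 10 M in DMSO and 12.7 and 11.01 in C48, a log2 fold change of 0.67 (limma adjusted p = 0.0264). For IRF4, the peak at -12316 bp had 11.1 and 17.2 in DMSO and 58.6 and 50.1 in C48 (1.57). The peak at +36681 bp went from 1.24 and 2.48 to 12.2 and 10.9 (1.90), and it reached the minimum mean of 5 only through C48, so it had to differ. The pair at -40477 and -39895 bp, annotated to the transcription termination site of another gene, had fold changes of 1.56 and 0.91 on the log2 scale. The peaks at +59728 and +82883 bp had values of 1.29 and 0.98. At each of the 6 IRF4 peaks both C48 libraries were above both DMSO libraries. The IRF1 peak at -5784 bp was called lower (-0.58, limma adjusted p = 4.25e-12), and the IRF1 peak at -6612 bp (0.21) and the IRF4 peak at +17091 bp (0.20) were not called.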

How the results depend on the processing

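Peaks were called higher and lower in numbers of 2 and 3 of 7, and each of the 2 higher met a condition of entry only through C48. Higher calls numbered 5 per 10 M tags as deposited, 5 on the column total, 6 on ribosomal protein promoters and 1 with a mean of at least 20, and lower calls fell to 0 on ribosomal protein promoters. Leaving out 1 library gave 1 to 2 higher, the lower value without C48 replicate 1. In the wider set of peaks, added after seeing the data, there were 4 higher and 5 lower of 11, and the same numbers with DESeq2 factors and with edgeR. Higher calls there were 8 on ribosomal protein promoters (with 1 lower), 7 as deposited and 7 on the column total, and leaving out 1 library gave 3 to 4 higher and 5 lower. The replicate block left 2 and 3 of 7, and 4 and 5 in the wider set. It changed no call of a peak, gene or ratio, and the numbers only name the samples (correlation of deviations -0.026).

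Summed genes called higher went from 1 to 3 on the column total and as deposited, to 4 on ribosomal protein promoters, and to 0 with a mean of at least 20 or a window of 1000 bp; leaving out 1 library gave 0 to 1, with 0 without C48 replicate 1. Genes called lower went from 2 to 0 on ribosomal protein promoters. Ratios called higher went from 2 to 1 with no filter on low values (IRF2 adjusted p = 0.0929 with limma) and to 1 to 2 on leaving out 1 library. Each shift is given with the setting that was changed. Leaving out a library or raising the minimum mean also left fewer samples or features, and the cause beyond that was not tested.

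Directions turned as follows. On ribosomal protein promoters IRF2 -526 was 0.057, IRF2 +1432 was 0.20, IRF5 +30 was 0.64, summed IRF1 was 0.22 and summed IRF2 was 0.085. IRF5 +30 was also 0.15 as deposited and 0.23 on the column total (0.20 in the wider set). IRF8 was -0.00029 with DESeq2 factors (-0.031 in the wider set) and -0.028 to 0.076 on leaving out 1 DMSO or C48 library, the lowest without DMSO replicate 2. Depth limits IRF7 and IRF4, with at most 34 and 67 tags per library.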
